A study of Mus musculus with 8 samples.

Results

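Collagens are the triple-helical proteins of the extracellular matrix, and the genes described here are all measured collagen genes except those of type IV, the network collagen of basement membranes. The genes were chosen by name. They are all rows of the count table whose symbol has the form of a collagen chain and is not a *Col4a* gene. The rule itself uses no measured values, but the set was chosen with earlier results of these data known. There were 38 such genes among 30890 in the table, made up of 11 fibrillar collagens, 9 FACITs, 4 transmembrane collagens and 14 of other kinds. All 8 samples were kidneys of C57BL/6 mouse embryos at E12.5, kept for 72 h as organ cultures in a defined medium with insulin, transferrin and selenium. In 4 of them the medium held 5 µM CHIR99021, an inhibitor of GSK-3β that raises β-catenin without a Wnt ligand, and in the other 4 it held 0.1% DMSO, the solvent. The left kidney of an embryo went to DMSO and the right kidney to CHIR99021, and kidneys whose Wnt target genes did not respond were excluded by the authors, so the treated group is a selected one.

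A collagen molecule is built of 3 chains that fold into a triple helix in the endoplasmic reticulum, after hydroxylation of prolines and lysines. Fibrillar collagens are trimmed outside the cell and assemble into cross-linked fibrils. Types I, III and V are typical of loose mesenchyme, skin and the stroma of organs, whereas types II and XI are typical of cartilage. FACITs, the fibril-associated collagens with interrupted triple helices, sit on the surface of such fibrils. Type VI forms beaded microfilaments around cells, types XV and XVIII carry glycosaminoglycans at basement membranes, and transmembrane collagens are held in the cell membrane. In the kidney, interstitial collagens are made mainly by stromal cells, and their excess marks fibrosis.

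Counts summed to between 14599082 and 17751992 per sample. Values are given as CPM, counts scaled to a common library size after TMM normalization, for comparisons of 1 gene between samples, and as FPKM, the deposited values per kilobase of gene, for comparisons between genes. Of the 38 genes, 35 had enough counts to be tested with edgeR's quasi-likelihood test, and rose and fell are used below for genes with an adjusted p under 0.05 (Benjamini-Hochberg, all 16723 tested genes). As a check of the kidney label, the nephron progenitor genes *Six2* and *Eya1* stood at 203 ± 28.4 and 151 ± 10.5 CPM with DMSO. The podocyte gene *Nphs1* stood at 1.44 ± 0.854 CPM with DMSO, although the 5 podocyte genes listed summed to 89.7 to 143 CPM. In these whole-organ samples fewer cells of a type and less RNA per cell cannot be told apart.

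Of the 35 tested collagens, 16 rose and 10 fell with CHIR99021, and 9 did not pass the test. Over all tested genes 23.7% rose and 25.0% fell, 48.7% in all. In limma on log2(FPKM + 1), where the median of all genes was at -0.10, 14 of the collagens rose and 11 fell, and 2520 of all genes rose and 6032 fell. The median log2 fold change was 0.34 over the tested collagens and -0.003 over all tested genes, and the collagens ranged from -3.21 to 2.54. All 4 CHIR99021-treated samples lay above all 4 DMSO-treated samples in CPM for 14 of the 35 genes, and below them for 11, against 22.7% and 23.4% of all tested genes. With a log2 fold change past 1 in size as well, 8 rose and 9 fell, against 4.65% and 9.16% of all tested genes.

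Of the 5 members with the highest mean FPKM, *Col1a1*, *Col3a1*, *Col1a2* and *Col18a1* rose and *Col6a1* did not pass. Ordered by mean FPKM, the leading genes in the DMSO-treated kidneys were *Col1a1* (286 ± 55.2, SD, n = 4), *Col3a1* (183 ± 19.9), *Col6a1* (125 ± 8.52), *Col1a2* (97.2 ± 16.2) and *Col18a1* (63.9 ± 8.28). After CHIR99021 the order was *Col1a1* (657 ± 62.5), *Col3a1* (259 ± 27.1), *Col1a2* (194 ± 14.2), *Col6a1* (127 ± 11.5) and *Col18a1* (124 ± 7.58). The last 2 of this order do not differ beyond their spread. Order by FPKM depends on gene length, with 12426 exon bases for *Col1a2*, 6563 for *Col1a1* and 4380 for *Col6a1*. In CPM with DMSO, *Col1a2* (1154 ± 184) stood above *Col6a1* (524 ± 33.4). The 38 genes took 0.761 to 0.962% of all counts in the DMSO-treated samples and 1.35 to 1.57% in the CHIR99021-treated ones. Of their summed FPKM, *Col1a1*, *Col1a2* and *Col3a1* held 51.2 to 57.4% with DMSO and 59.5 to 63.7% with CHIR99021, with no overlap between the groups. By FPKM, *Col1a1* ranked between place 61 and place 112 among all genes in the DMSO-treated samples and between place 27 and place 41 in the CHIR99021-treated ones.

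**Figure D1:**
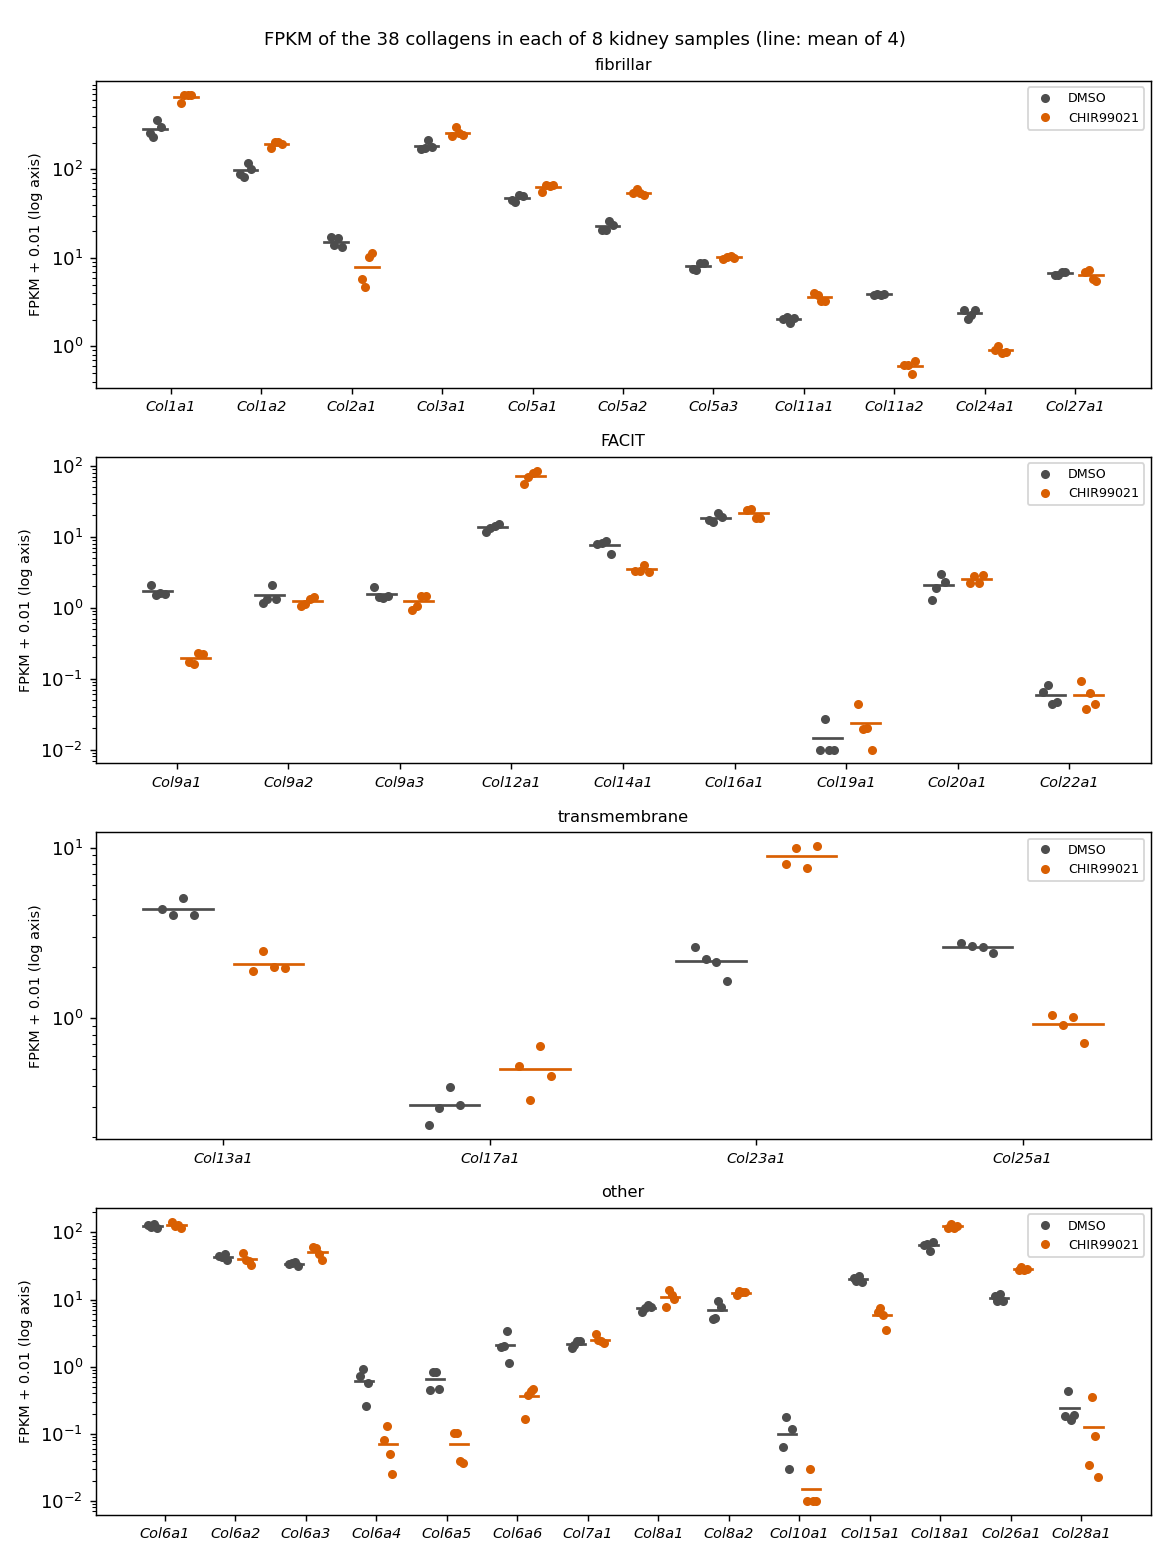
FPKM plus 0.01 on a log axis for the 38 collagens, in a panel for each class, with 1 point for each kidney sample and a line at the mean of 4. *Col1a1* is the highest member in both groups, at a mean of 286 with DMSO and 657 with CHIR99021, whereas *Col19a1* and *Col10a1* lie near 0 in both.

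Promoter sequence is shown for 2 genes that rose and 2 that fell, chosen among those with a RefSeq start equal to the gene end in the count table, so that the 150 bases before the start can be read beside their opposite changes. *Col3a1* encodes type III collagen, *Col23a1* a transmembrane collagen, *Col9a1* a chain of the cartilage FACIT type IX, and *Col6a5* an alternative chain of type VI. Each is written 5′ to 3′ on the strand of the gene, from RefSeq on GRCm38.p6, with matches to any of 4 motifs in capitals.
Col3a1, chr1:45311388-45311537, plus strand: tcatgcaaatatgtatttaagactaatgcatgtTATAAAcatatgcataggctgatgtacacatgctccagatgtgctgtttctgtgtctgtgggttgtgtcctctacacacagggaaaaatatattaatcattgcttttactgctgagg
Col23a1, chr11:51289770-51289919, plus strand: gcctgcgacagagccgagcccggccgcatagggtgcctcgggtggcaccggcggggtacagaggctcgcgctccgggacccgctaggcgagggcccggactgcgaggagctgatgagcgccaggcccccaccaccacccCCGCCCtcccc
Col9a1, chr1:24177460-24177609, plus strand: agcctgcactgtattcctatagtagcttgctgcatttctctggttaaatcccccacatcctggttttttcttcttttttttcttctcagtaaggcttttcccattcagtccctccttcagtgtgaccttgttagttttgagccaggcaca
Col6a5, chr9:105960644-105960793, minus strand: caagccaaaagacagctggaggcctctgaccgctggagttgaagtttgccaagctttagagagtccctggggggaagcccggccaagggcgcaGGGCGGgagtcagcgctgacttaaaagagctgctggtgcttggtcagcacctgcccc
The motifs searched on both strands were the TATA box (TATAAA), the CCAAT box (CCAAT), the core of TCF/LEF sites (CTTTGA or CTTTGT) and the GC box (GGGCGG), and no matches of different motifs overlap in the windows shown. The shown windows held a TATA box at -117 in *Col3a1* and a GC box at -11 in *Col23a1* and at -57 in *Col6a5*, and none of the 4 motifs in *Col9a1*. In the 250 bases before the start, which could be read for 30 of the 38 members, the TCF/LEF core was present in 2 of 12 that rose, 3 of 9 that fell and 5 of 7 that did not pass, and in 27.6% of all 32817 promoters. *Col3a1* and *Col9a1* each held 1 such core, outside the windows shown. A GC box was present in 9 of 12 that rose, 5 of 9 that fell and 4 of 7 that did not pass, and in 32.7% of all promoters. The CCAAT box was present in 6 of 12 that rose, 2 of 9 that fell and 1 of 7 that did not pass, and in 33.8% of all promoters. The TATA box was present in 2 of 12 that rose, 2 of 9 that fell and 0 of 7 that did not pass, and in 12.4% of all promoters. No RefSeq window was read for *Col1a1*, *Col2a1*, *Col5a2*, *Col9a3*, *Col12a1*, *Col14a1*, *Col22a1* and *Col26a1*.

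Among the 11 fibrillar collagens, all tested, 7 rose, 2 fell and 2 did not pass, with a median log2 fold change of 0.56. The shares over all tested genes were 23.7% higher and 25.0% lower. The chains of types I, III and V rose together, and chains typical of cartilage moved in both directions. *Col1a1*, on chromosome 11 from 94936224 to 94953042 (GRCm38, as all positions here), encodes the major chain of type I collagen. It stood at 1622, 1454, 2221 and 1874 CPM in DMSO replicates 1 to 4 and 3891, 4792, 4757 and 4655 CPM in CHIR99021 replicates 1 to 4. Every treated sample lay above every control, and CHIR99021 replicate 1 was the lowest of its group. The mean rose from 1793 ± 333 to 4524 ± 426 CPM (2.52-fold, log2 fold change 1.34 with an SE of 0.13, adjusted p = 2.49e-05). *Col1a2*, the partner chain on chromosome 6 from 4504814 to 4541544, stood at 1059, 972, 1396 and 1188 CPM in DMSO replicates 1 to 4 and 2269.8, 2695, 2633 and 2509 CPM in CHIR99021 replicates 1 to 4. Its groups did not overlap either, and DMSO replicate 3 was the highest control for both genes. *Col1a2* rose 2.19-fold (log2 fold change 1.13 with an SE of 0.11, adjusted p = 8.92e-06).

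*Col3a1* encodes type III collagen, which forms fibrils together with type I, and lies on chromosome 1 from 45311538 to 45349706. It stood at 1607, 1632, 1979.9 and 1657 CPM in DMSO replicates 1 to 4 and 2437, 3082, 2681 and 2493 CPM in CHIR99021 replicates 1 to 4. The highest control, DMSO replicate 3, was below the lowest treated sample, and the rise was 1.55-fold (log2 fold change 0.64 with an SE of 0.086, adjusted p = 7.54e-05). In limma on log2(count + 1) after quantile normalization the call of *Col3a1* ended (log2 fold change 0.16, adjusted p = 0.353), and *Col1a1* and *Col1a2* rose less, with log2 fold changes of 0.84 and 0.71, as did *Col5a1* (0.31) and *Col6a3* (0.43). *Col5a2*, which encodes a chain of the minor fibrillar type V that starts type I fibrils, lies on chromosome 1 from 45374321 to 45503282, 24.6 kb beyond the end of *Col3a1* on the opposite strand. It stood at 189.9, 192, 238 and 215 CPM in DMSO replicates 1 to 4 and 549, 602, 544 and 507 CPM in CHIR99021 replicates 1 to 4. Its treated samples were all far above the highest control, DMSO replicate 3, a 2.64-fold rise (log2 fold change 1.40 with an SE of 0.077, adjusted p = 4.50e-08).

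The other chains of type V rose less. *Col5a1*, the obligatory chain of type V, rose from 383 ± 26.7 to 565 ± 45.8 CPM (log2 fold change 0.56 with an SE of 0.067, adjusted p = 1.81e-05). *Col5a3*, its less common chain, rose from 52.5 ± 5.20 to 72.2 ± 2.93 CPM (log2 fold change 0.46 with an SE of 0.070, adjusted p = 0.000134). In both genes all treated samples lay above all controls. *Col27a1*, a fibrillar collagen of growth plate cartilage, spanned 79.5 to 86.5 CPM with DMSO and 73.4 to 101 CPM with CHIR99021. It did not pass the test (log2 fold change 0.067, adjusted p = 0.592), with an approximate 95% interval of -0.12 to 0.25.

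The 2 *Col11a* genes, which encode chains of type XI, a collagen that controls the width of cartilage fibrils, moved in opposite directions. *Col11a1*, on chromosome 3 from 114030540 to 114220718, stood at 25.0, 26.4, 21.9 and 25.1 CPM in DMSO replicates 1 to 4 and 53.9, 51.5, 43.7 and 43.2 CPM in CHIR99021 replicates 1 to 4. All treated samples were above all controls, and it rose 1.95-fold (log2 fold change 0.97 with an SE of 0.088, adjusted p = 1.85e-06). *Col11a2*, on chromosome 17 from 34039437 to 34066685, stood at 25.2, 25.4, 24.8 and 25.8 CPM in DMSO replicates 1 to 4 and 4.37, 4.35, 3.44 and 4.73 CPM in CHIR99021 replicates 1 to 4. The controls lay close together and the treated samples were far below them, a 5.98-fold fall (log2 fold change -2.58 with an SE of 0.10, adjusted p = 1.56e-09).

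*Col2a1*, the main collagen of cartilage, on chromosome 15 from 97975602 to 98004695, stood at 98.9, 80.4, 95.8 and 76.0 CPM in DMSO replicates 1 to 4 and 36.9, 29.4, 64.1 and 70.1 CPM in CHIR99021 replicates 1 to 4. Every treated sample lay below every control, but the treated samples split into 2 lower and 2 higher ones and the test was not passed (log2 fold change -0.81 with an SE of 0.29, adjusted p = 0.0590, approximate 95% interval -1.39 to -0.24). The fall passed with DESeq2 (adjusted p = 0.0188), limma-voom (adjusted p = 0.00615) and limma in its other 3 settings (adjusted p between 0.00986 and 0.0268), and without CHIR99021 replicate 4 (adjusted p = 0.0311). *Col24a1*, a fibrillar collagen of developing bone and cornea, stood at 18.7, 15.1, 16.3 and 18.9 CPM in DMSO replicates 1 to 4 and 7.30, 8.10, 6.67 and 6.77 CPM in CHIR99021 replicates 1 to 4. It fell 2.39-fold (log2 fold change -1.25 with an SE of 0.11, adjusted p = 1.69e-06), with no overlap of the groups. The log2(FPKM + 1) scale understates the change of low genes, and the median of all genes on it was -0.10. On this scale limma gave -0.82 for *Col24a1*, 0.30 for *Col5a3*, 0.60 for *Col11a1* and -1.62 for *Col11a2*, all with the call kept. *Col5a3* is not among the low genes, and on the log2(FPKM + 0.1) scale it was at 0.33.

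**Figure D2:**
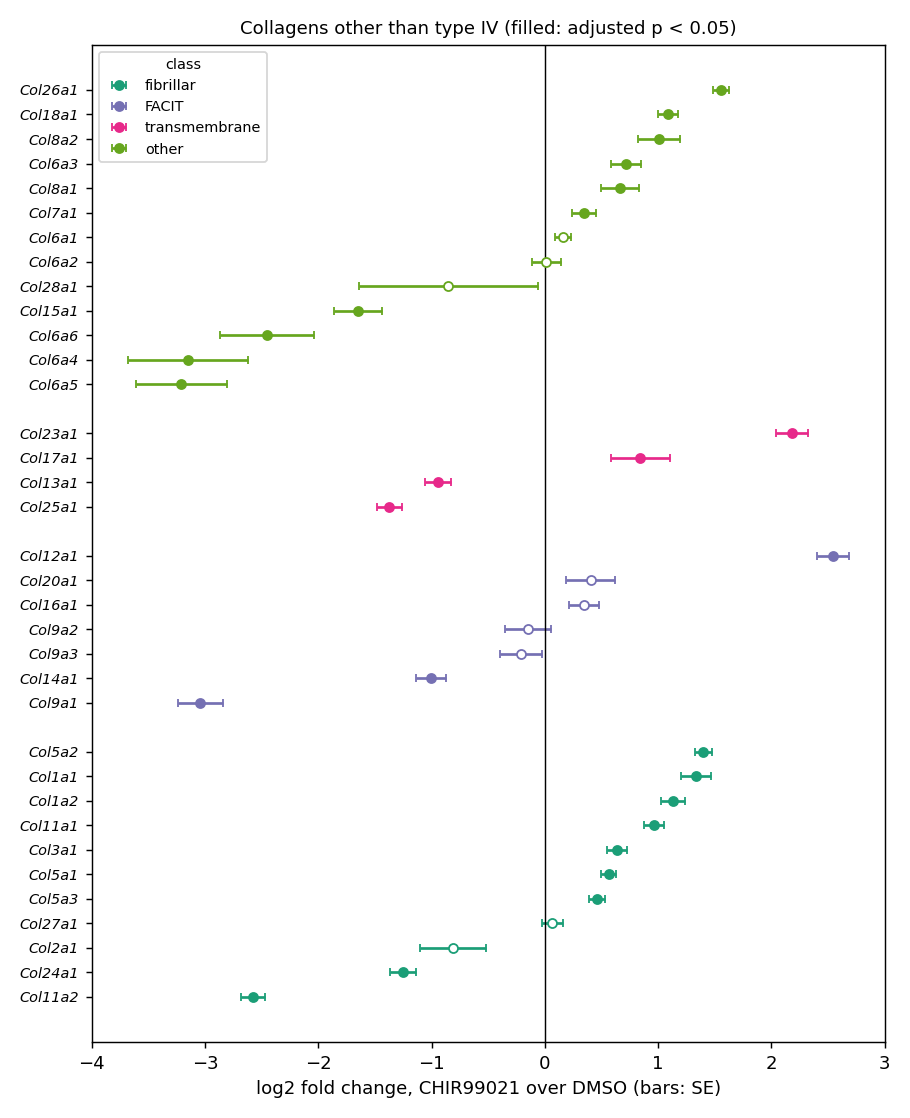
Log2 fold changes of CHIR99021 over DMSO for the 35 tested collagens, ordered within each class, with bars of 1 SE and filled points at an adjusted p under 0.05. Fibrillar genes run from -2.58 for *Col11a2* to 1.40 for *Col5a2*, and the highest point of all is *Col12a1* at 2.54.

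Of the 9 FACITs 7 were tested, and 1 rose, 2 fell and 4 did not pass, with a median log2 fold change of -0.15. That is 42.9% called, against 48.7% of all tested genes. *Col12a1*, on chromosome 9 from 79598991 to 79718831, encodes the FACIT that coats type I fibrils in dense connective tissue and under mechanical load. It stood at 170.4, 196, 204 and 218 CPM in DMSO replicates 1 to 4 and 873, 1100.4, 1272 and 1347 CPM in CHIR99021 replicates 1 to 4. All treated samples were far above all controls, with CHIR99021 replicate 1 the lowest of them, and with 5.83-fold it had the highest log2 fold change of the tested members (log2 fold change 2.54 with an SE of 0.14, adjusted p = 1.11e-06). By FPKM it moved from 13.5 ± 1.42 to 71.9 ± 13.5. *Col14a1*, its closest relative, which also binds type I fibrils, lies on chromosome 15 from 55307750 to 55520803 and went the other way. It stood at 53.8, 54.8, 57.9 and 37.5 CPM in DMSO replicates 1 to 4 and 24.3, 24.5, 29.5 and 23.4 CPM in CHIR99021 replicates 1 to 4, and DMSO replicate 4 was the lowest control. It fell 2.01-fold (log2 fold change -1.01 with an SE of 0.13, adjusted p = 0.000123).

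Type IX coats the type II fibrils of cartilage, and its 3 chains did not move alike. *Col9a1*, on chromosome 1 from 24177610 to 24252684, stood at 10.2, 7.19, 7.62 and 7.52 CPM in DMSO replicates 1 to 4 and 0.874, 0.803, 1.15 and 1.12 CPM in CHIR99021 replicates 1 to 4. The controls, with replicate 1 the highest, were all far above the treated samples, an 8.26-fold fall (log2 fold change -3.04 with an SE of 0.20, adjusted p = 9.92e-08, and -1.17 on the log2(FPKM + 1) scale). *Col9a2* stood at 3.46, 3.94, 6.15 and 3.86 CPM in DMSO replicates 1 to 4 and 3.43, 3.61, 4.23 and 4.47 CPM in CHIR99021 replicates 1 to 4, and *Col9a3* at 7.09, 5.25, 4.98 and 5.37 CPM in DMSO replicates 1 to 4 and 3.74, 4.28, 5.89 and 5.72 CPM in CHIR99021 replicates 1 to 4. Both overlapped between the groups and did not pass, with a log2 fold change of -0.15 (approximate 95% interval -0.54 to 0.25, adjusted p = 0.589) and of -0.21 (-0.58 to 0.15, adjusted p = 0.371). The difference between the 3 genes was not tested.

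The remaining FACITs gave no call. *Col16a1*, a FACIT of skin and smooth muscle, stood at 110.5, 104, 137 and 123 CPM in DMSO replicates 1 to 4 and 166, 177, 132 and 127 CPM in CHIR99021 replicates 1 to 4. The first 2 treated samples were above all controls and the last 2 were within their range (log2 fold change 0.34 with an SE of 0.13, adjusted p = 0.0554). Its rise passed with DESeq2 (adjusted p = 0.00749), with limma-voom (adjusted p = 0.0313) and with a filter at 1 CPM in 4 samples (adjusted p = 0.0498), and without DMSO replicate 3 or CHIR99021 replicate 3 or 4 (adjusted p = 0.0241 to 0.0365). *Col20a1* stood at 5.09, 7.48, 11.7 and 9.03 CPM in DMSO replicates 1 to 4 and 9.67, 12.2, 9.62 and 12.4 CPM in CHIR99021 replicates 1 to 4 and overlapped between the groups (log2 fold change 0.40 with an SE of 0.22, adjusted p = 0.152), and it passed only without DMSO replicate 3 among the alternatives run (log2 fold change 0.61, adjusted p = 0.0199). *Col19a1* and *Col22a1* were too low to test. *Col19a1* had 0, 2, 0 and 0 counts in DMSO replicates 1 to 4 and 4, 1, 1 and 0 counts in CHIR99021 replicates 1 to 4, and *Col22a1* had 9, 11, 5 and 5 against 13, 4, 7 and 5 counts.

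The 4 transmembrane collagens were all called, 2 in each direction, against 48.7% of all tested genes called in either direction. *Col23a1*, on chromosome 11 from 51289920 to 51583918, stood at 14.3, 12.2, 11.6 and 9.03 CPM in DMSO replicates 1 to 4 and 48.3, 59.9, 45.9 and 60.7 CPM in CHIR99021 replicates 1 to 4. The groups were far apart, and its 4.56-fold rise was the next largest after *Col12a1* (log2 fold change 2.18 with an SE of 0.14, adjusted p = 5.49e-07). *Col25a1*, on chromosome 3 from 130131501 to 130599877, a collagen needed for the growth of motor axons into muscle, stood at 34.0, 32.7, 31.8 and 29.6 CPM in DMSO replicates 1 to 4 and 14.0, 12.3, 13.7 and 9.47 CPM in CHIR99021 replicates 1 to 4. It fell 2.59-fold (log2 fold change -1.37 with an SE of 0.11, adjusted p = 5.97e-07, and -0.91 on the log2(FPKM + 1) scale). *Col13a1*, on chromosome 10 from 61838236 to 61979108, a collagen of cell adhesions and the neuromuscular junction, stood at 19.4, 17.9, 22.0 and 17.6 CPM in DMSO replicates 1 to 4 and 9.11, 11.9, 9.55 and 9.33 CPM in CHIR99021 replicates 1 to 4. It fell 1.92-fold (log2 fold change -0.94 with an SE of 0.11, adjusted p = 2.00e-05), again with no overlap. *Col17a1*, the hemidesmosome collagen that anchors basal epithelial cells, stood at 1.24, 1.60, 2.11 and 1.64 CPM in DMSO replicates 1 to 4 and 3.12, 1.94, 4.09 and 2.70 CPM in CHIR99021 replicates 1 to 4, and its groups overlapped. Its call (log2 fold change 0.84 with an SE of 0.26, adjusted p = 0.0166) ended without DMSO replicate 1 (adjusted p = 0.0516) or CHIR99021 replicate 3 (adjusted p = 0.0629), without both DMSO replicates 2 and 4 (adjusted p = 0.0934) and in limma on log2(FPKM + 1) (log2 fold change 0.19, adjusted p = 0.0618). Beside it, the squamous markers *Krt5* and *Trp63* had log2 fold changes of -1.93 and -1.71 (adjusted p = 0.000248 and 7.30e-05). Of the 5 squamous genes listed 3 were tested, and the remaining tested one went up without passing (log2 fold change 0.39). Among all tested genes 25.0% fell. The squamous list summed to 8.73 to 14.7 CPM with DMSO and 3.06 to 5.31 CPM with CHIR99021. The part of these markers in the result was not tested.

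Of the 14 genes of other kinds, 13 were tested, with 6 that rose, 4 that fell and 3 that did not pass, and a median log2 fold change of 0.16. The shares over all tested genes were 23.7% higher and 25.0% lower. Type VI, the beaded-filament collagen around cells, divided by chain. Its classical molecule joins the chains of *Col6a1*, *Col6a2* and *Col6a3*, and *Col6a4*, *Col6a5* and *Col6a6* encode chains that can take the place of the last. *Col6a1*, on chromosome 10 from 76708792 to 76726168, stood at 541, 501, 563 and 492 CPM in DMSO replicates 1 to 4 and 658, 576, 584 and 524 CPM in CHIR99021 replicates 1 to 4. The groups overlapped and it did not pass (log2 fold change 0.16 with an SE of 0.069, adjusted p = 0.0763). With the replicate number as a block it passed, at a log2 fold change of 0.16 (adjusted p = 0.0261). It also passed with no expression filter (adjusted p = 0.0244) and without DMSO replicate 3 (adjusted p = 0.0482) or CHIR99021 replicate 4 (adjusted p = 0.0210). *Col6a2*, 85.2 kb away on the same strand, stood at 359, 344, 371 and 305 CPM in DMSO replicates 1 to 4 and 437, 346, 327 and 280.2 CPM in CHIR99021 replicates 1 to 4, with an approximate 95% interval of -0.24 to 0.26 around a log2 fold change of 0.012 (adjusted p = 0.946). *Col6a3*, on chromosome 1 from 90765923 to 90843971, stood at 391, 397, 417 and 365 CPM in DMSO replicates 1 to 4 and 761, 736, 590.4 and 491 CPM in CHIR99021 replicates 1 to 4. All its treated samples were above all controls, with replicates 1 and 2 the highest, and it rose 1.64-fold (log2 fold change 0.72 with an SE of 0.13, adjusted p = 0.00185).

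The alternative chains lie in a row on the minus strand of chromosome 9, with gaps of 27.9 and 28.8 kb, and all 3 fell. *Col6a4*, from 105989454 to 106096783, stood at 5.79, 7.37, 2.05 and 4.51 CPM in DMSO replicates 1 to 4 and 0.624, 1.07, 0.359 and 0.131 CPM in CHIR99021 replicates 1 to 4, a 9.02-fold fall (log2 fold change -3.15 with an SE of 0.53, adjusted p = 0.000779). *Col6a5*, from 105856078 to 105960643, stood at 3.95, 7.54, 7.32 and 4.12 CPM in DMSO replicates 1 to 4 and 0.936, 0.937, 0.287 and 0.263 CPM in CHIR99021 replicates 1 to 4, a 9.46-fold fall (log2 fold change -3.21 with an SE of 0.40, adjusted p = 5.19e-05). *Col6a6*, from 105687809 to 105828160, stood at 17.2, 17.8, 29.5 and 9.88 CPM in DMSO replicates 1 to 4 and 1.50, 3.61, 4.09 and 4.40 CPM in CHIR99021 replicates 1 to 4, a 5.46-fold fall (log2 fold change -2.46 with an SE of 0.42, adjusted p = 0.00164). The controls of these genes varied widely, with DMSO replicate 3 the lowest for *Col6a4* and the highest for *Col6a6*, yet no treated sample reached any control of the same gene. On the log2(FPKM + 1) scale limma gave -0.58, -0.62 and -1.16 for *Col6a4*, *Col6a5* and *Col6a6*, and on the log2(FPKM + 0.1) scale -2.07 for *Col6a4*, with the calls kept. Summed over the 3 genes, FPKM was 2.14 to 4.47 with DMSO and 0.319 to 0.586 with CHIR99021, against 188 to 219 and 187 to 253 for the classical chains. Stretches of 50 bases shared with other genes made up 3.42% of *Col6a5* and 3.54% of *Col6a6*, and at most 1.85% of any other member.

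The 2 multiplexins, which release the endostatin-like fragments known to act on vessels, moved in opposite directions. *Col18a1*, on chromosome 10 from 77052178 to 77166548, is a basement membrane collagen of the ureteric bud and vessels and stood at 436, 449.8, 348 and 483 CPM in DMSO replicates 1 to 4 and 872, 989, 863 and 918 CPM in CHIR99021 replicates 1 to 4. DMSO replicate 3 was the lowest control, all treated samples were above all controls, and the rise was 2.12-fold (log2 fold change 1.09 with an SE of 0.091, adjusted p = 2.52e-06). *Col15a1*, on chromosome 4 from 47208161 to 47313167, is a basement membrane collagen of capillaries and muscle and stood at 129, 114, 134 and 109 CPM in DMSO replicates 1 to 4 and 43.2, 49.5, 39.1 and 23.1 CPM in CHIR99021 replicates 1 to 4. All treated samples were below all controls, CHIR99021 replicate 4 was the lowest, and the fall was 3.13-fold (log2 fold change -1.65 with an SE of 0.21, adjusted p = 0.000484). Beside these, all 5 endothelial markers fell, against 25.0% of all tested genes. Their log2 fold changes were -1.69 for *Kdr*, -1.60 for *Cdh5*, -1.52 for *Tie1*, -1.50 for *Pecam1* and -0.62 for *Emcn*. Their summed level was 383 to 538 CPM with DMSO and 145 to 201 CPM with CHIR99021. Its part in the fall of *Col15a1* was not tested.

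*Col26a1*, on chromosome 5 from 136741759 to 136883209, a short collagen first found in testis and ovary, stood at 87.9, 75.0, 92.4 and 74.5 CPM in DMSO replicates 1 to 4 and 236, 260.5, 233 and 239 CPM in CHIR99021 replicates 1 to 4. It rose 2.94-fold (log2 fold change 1.55 with an SE of 0.072, adjusted p = 8.36e-09), with tight groups far apart. The network collagen of type VIII, found under endothelia and in the cornea, rose in both chains. *Col8a2* stood at 22.1, 23.1, 40.7 and 33.0 CPM in DMSO replicates 1 to 4 and 55.6, 62.7, 60.0 and 60.2 CPM in CHIR99021 replicates 1 to 4 (log2 fold change 1.01 with an SE of 0.19, adjusted p = 0.00229), and *Col8a1* at 32.4, 36.9, 40.8 and 37.6 CPM in DMSO replicates 1 to 4 and 41.5, 75.6, 62.9 and 54.0 CPM in CHIR99021 replicates 1 to 4 (log2 fold change 0.66 with an SE of 0.17, adjusted p = 0.0112). The groups did not overlap in either gene, although CHIR99021 replicate 1 of *Col8a1* was close to the highest control. The call of *Col8a1* ended when both DMSO replicates 2 and 4 were left out (adjusted p = 0.0827). *Col7a1*, the anchoring fibril collagen of skin, stood at 18.6, 20.4, 23.1 and 23.9 CPM in DMSO replicates 1 to 4 and 32.6, 27.2, 25.5 and 23.9 CPM in CHIR99021 replicates 1 to 4 (log2 fold change 0.35 with an SE of 0.11, adjusted p = 0.0186). Its groups overlapped, and it was no longer called once DMSO replicate 1, DMSO replicate 2 or CHIR99021 replicate 1 was left out (adjusted p = 0.0509 to 0.0580) and with limma on log2(FPKM + 1) or log2(FPKM + 0.1) (adjusted p = 0.182 and 0.190).

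*Col28a1*, a low-level collagen of peripheral nerve, had 15, 35, 12 and 13 counts in DMSO replicates 1 to 4 and 2, 27, 6 and 1 counts in CHIR99021 replicates 1 to 4. It did not pass (log2 fold change -0.85 with an SE of 0.79, adjusted p = 0.409). Replicate 2 had the highest count in both groups, the treated sample was lower in all 4 same-numbered pairs, and in the paired fit (replicate number as block) the log2 fold change was -1.06 (adjusted p = 0.0832). Without CHIR99021 replicate 2 it fell, at a log2 fold change of -2.40 (adjusted p = 0.00775). *Col10a1*, the marker of hypertrophic cartilage, was too low to test in the main fit, with 3, 9, 1 and 5 counts in DMSO replicates 1 to 4 against 0, 1, 0 and 0 counts in CHIR99021 replicates 1 to 4.

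Most pairs of chains compared here join in 1 molecule or serve the same fibril, whereas *Col18a1* and *Col15a1* are the 2 multiplexins. Some pairs shifted against each other and others overlapped. The FPKM of *Col1a1* over that of *Col1a2* was 2.83 to 3.01 in the DMSO-treated samples and 3.25 to 3.51 in the CHIR99021-treated ones, so the groups did not overlap although both genes rose. *Col5a2* over *Col5a1* was 0.459 to 0.514 with DMSO and 0.767 to 0.973 with CHIR99021, and *Col6a3* over *Col6a1* was 0.264 to 0.290 and 0.343 to 0.468. By contrast *Col6a1* over *Col6a2* overlapped, at 2.77 to 3.07 with DMSO and 2.86 to 3.55 with CHIR99021. The same held for *Col5a1* over *Col5a3* (5.60 to 6.06 with DMSO and 5.74 to 6.73 with CHIR99021), *Col9a3* over *Col9a2* (0.650 to 1.64 with DMSO and 0.876 to 1.12 with CHIR99021) and *Col8a2* over *Col8a1* (0.712 to 1.14 with DMSO and 0.943 to 1.52 with CHIR99021). Wider shifts were seen for 3 pairs with opposite changes and for *Col9a1* over *Col9a2*, where the first gene fell and the second did not pass. *Col11a1* over *Col11a2* was 0.473 to 0.559 with DMSO and 4.89 to 6.80 with CHIR99021, and *Col12a1* over *Col14a1* was 1.46 to 2.68 and 16.6 to 26.5. *Col18a1* over *Col15a1* was 2.36 to 4.00 and 18.1 to 35.9. *Col9a1* over *Col9a2* was 0.756 to 1.80 and 0.136 to 0.166. These ratios are descriptions of the 8 samples, with no test. Their level depends on the gene lengths behind FPKM, which are the same in every sample.

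**Figure D3:**
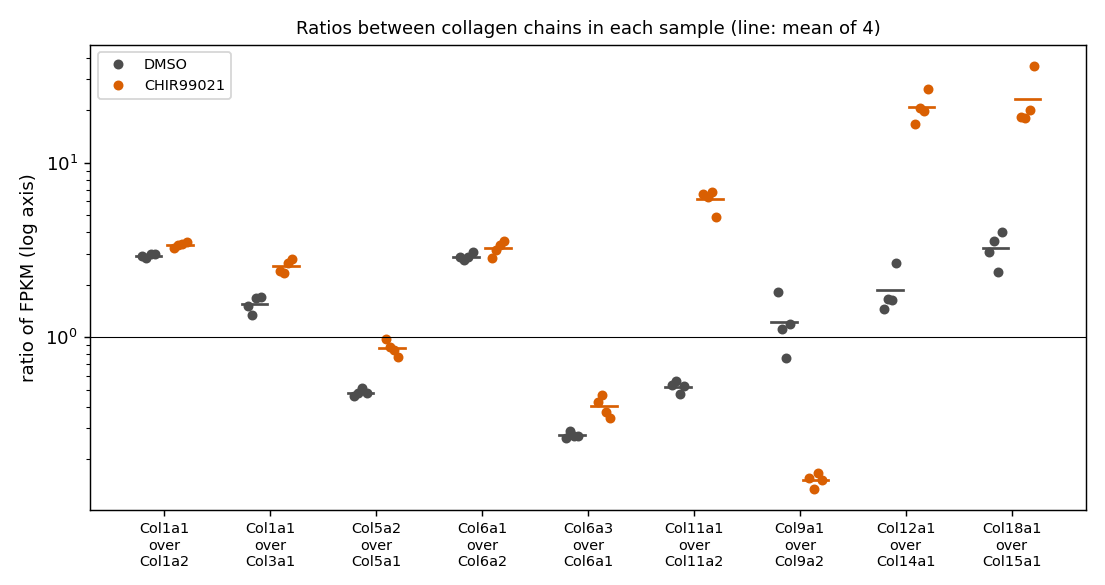
Ratios of FPKM between collagen genes on a log axis, with 1 point for each kidney sample, a line at the mean of 4 and a thin line at a ratio of 1. *Col11a1* over *Col11a2* lies at 0.473 to 0.559 with DMSO and at 4.89 to 6.80 with CHIR99021, whereas *Col6a1* over *Col6a2* overlaps between the groups.

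Most genes that fold and modify collagen chains rose, and so did 7 of the 11 fibrillar collagens. None of the folding genes rose past a log2 fold change of 1, whereas 2 fell past it. Of 18 folding and modifying genes, all tested, 14 rose and 2 fell, with a median log2 fold change of 0.27. Over all tested genes 23.7% rose and 25.0% fell, with a median of -0.003. *P4hb*, a subunit of prolyl 4-hydroxylase, rose from 937 ± 60.6 to 1482 ± 17.4 CPM (log2 fold change 0.66 with an SE of 0.054, adjusted p = 6.63e-07). *Serpinh1*, the collagen chaperone HSP47, rose from 1052 ± 42.1 to 1596 ± 61.1 CPM (log2 fold change 0.60). *Fkbp10* and *P3h1*, a prolyl isomerase and a prolyl 3-hydroxylase of collagen, rose as well (log2 fold changes 0.76 and 0.83). The 2 that fell, named after their values were seen, were the prolyl 3-hydroxylase *P3h2*, which acts mainly on type IV collagen (log2 fold change -1.42), and the galactosyltransferase *Colgalt2* (log2 fold change -1.77). Of the 13 genes of propeptide cleavage and cross-linking 12 were tested, and 9 rose and 1 fell, with a median of 0.76. *Bmp1*, the C-propeptide protease, rose from 134 ± 7.74 to 247 ± 21.1 CPM (log2 fold change 0.88 with an SE of 0.064, adjusted p = 2.81e-07), together with its enhancer *Pcolce* (log2 fold change 0.64), the cross-linking enzyme *Loxl3* (0.65) and the N-propeptidase *Adamts3* (0.88). *Adamts2*, the main N-propeptidase of types I and III and named after its value was seen, was the 1 that fell, from 33.1 ± 4.14 to 18.4 ± 2.62 CPM (log2 fold change -0.85 with an SE of 0.11, adjusted p = 6.04e-05).

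Fibril-associated proteins moved both ways, with 4 that rose and 4 that fell among 13 tested of 17 (median log2 fold change -0.34). For this list and the receptors below, the shares over all tested genes were 23.7% higher and 25.0% lower. The proteoglycan *Bgn* rose from 439 ± 56.1 to 1625 ± 109 CPM (log2 fold change 1.89 with an SE of 0.086, adjusted p = 9.77e-09), and *Matn2* (log2 fold change 1.69) and fibronectin *Fn1* (0.96) rose too. The fourth that rose was periostin *Postn* (log2 fold change 1.32), and those that fell besides the cartilage matrilin *Matn1* were *Ogn* (-1.44), *Aspn* (-2.55) and tenascin-X *Tnxb* (-2.91), all 4 named after their values were seen. Collagen receptors gave 4 higher and 3 lower of 10 tested, with small changes except for the immune receptor *Lair1* (log2 fold change -4.64 with an SE of 0.73, adjusted p = 0.000250). *Ddr2*, which binds fibrillar collagen in mesenchyme, rose from 113 ± 11.2 to 151 ± 5.08 CPM, and the epithelial receptor *Ddr1* fell from 130.3 ± 7.10 to 101 ± 6.59 CPM (log2 fold changes 0.42 and -0.36). The integrin subunit *Itga10* also rose (0.74). The others called, named after their values were seen, were *Itgb1* (0.22), the collagen uptake receptor *Mrc2* (0.23) and *Itga2* (-0.45).

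Of 9 tested collagenases and gelatinases 4 rose and 3 fell, against 23.7% and 25.0% of all tested genes. The gelatinase *Mmp2* rose from 279.9 ± 26.3 to 729.9 ± 28.4 CPM (log2 fold change 1.38 with an SE of 0.066, adjusted p = 5.98e-09) and the membrane collagenase *Mmp14* from 454 ± 16.2 to 779 ± 98.9 CPM (log2 fold change 0.78 with an SE of 0.081, adjusted p = 8.86e-06), whereas the membrane proteases *Mmp15* and *Mmp16* fell (log2 fold changes -0.95 and -1.82). Named after their values were seen, the gelatinase *Mmp9* rose from 15.3 ± 6.60 to 411 ± 271 CPM (log2 fold change 4.74 with an SE of 0.73, adjusted p = 0.00206), the osteoclast protease *Ctsk* rose (1.23) and *Fap* fell (-0.76). Of 9 transcription factors known to act on collagen genes 4 rose and 3 fell, against the same shares of all tested genes. The bone factors *Sp7* and *Runx2* rose from 2.13 ± 0.292 to 24.5 ± 4.40 CPM and from 21.6 ± 2.74 to 64.3 ± 1.42 CPM (log2 fold changes 3.51 and 1.58), and so did *Creb3l1* (0.67). *Sox9*, which acts on cartilage collagen genes and is also expressed in the ureteric tip, fell from 50.0 ± 5.53 to 27.0 ± 3.75 CPM (log2 fold change -0.89 with an SE of 0.11, adjusted p = 3.19e-05). Of the cartilage collagens, *Col9a1* and *Col11a2* fell, *Col11a1* rose, and *Col2a1*, *Col9a2*, *Col9a3* and *Col27a1* did not pass. The part of *Sox9* in these values was not tested. The other factors called, named after their values were seen, were *Twist2* (1.25) and the tendon factors *Scx* (-0.50) and *Mkx* (-0.56). The partners of *Sox9*, *Sox5* and *Sox6* did not pass (log2 fold changes 0.016 and -0.12).

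**Figure D4:**
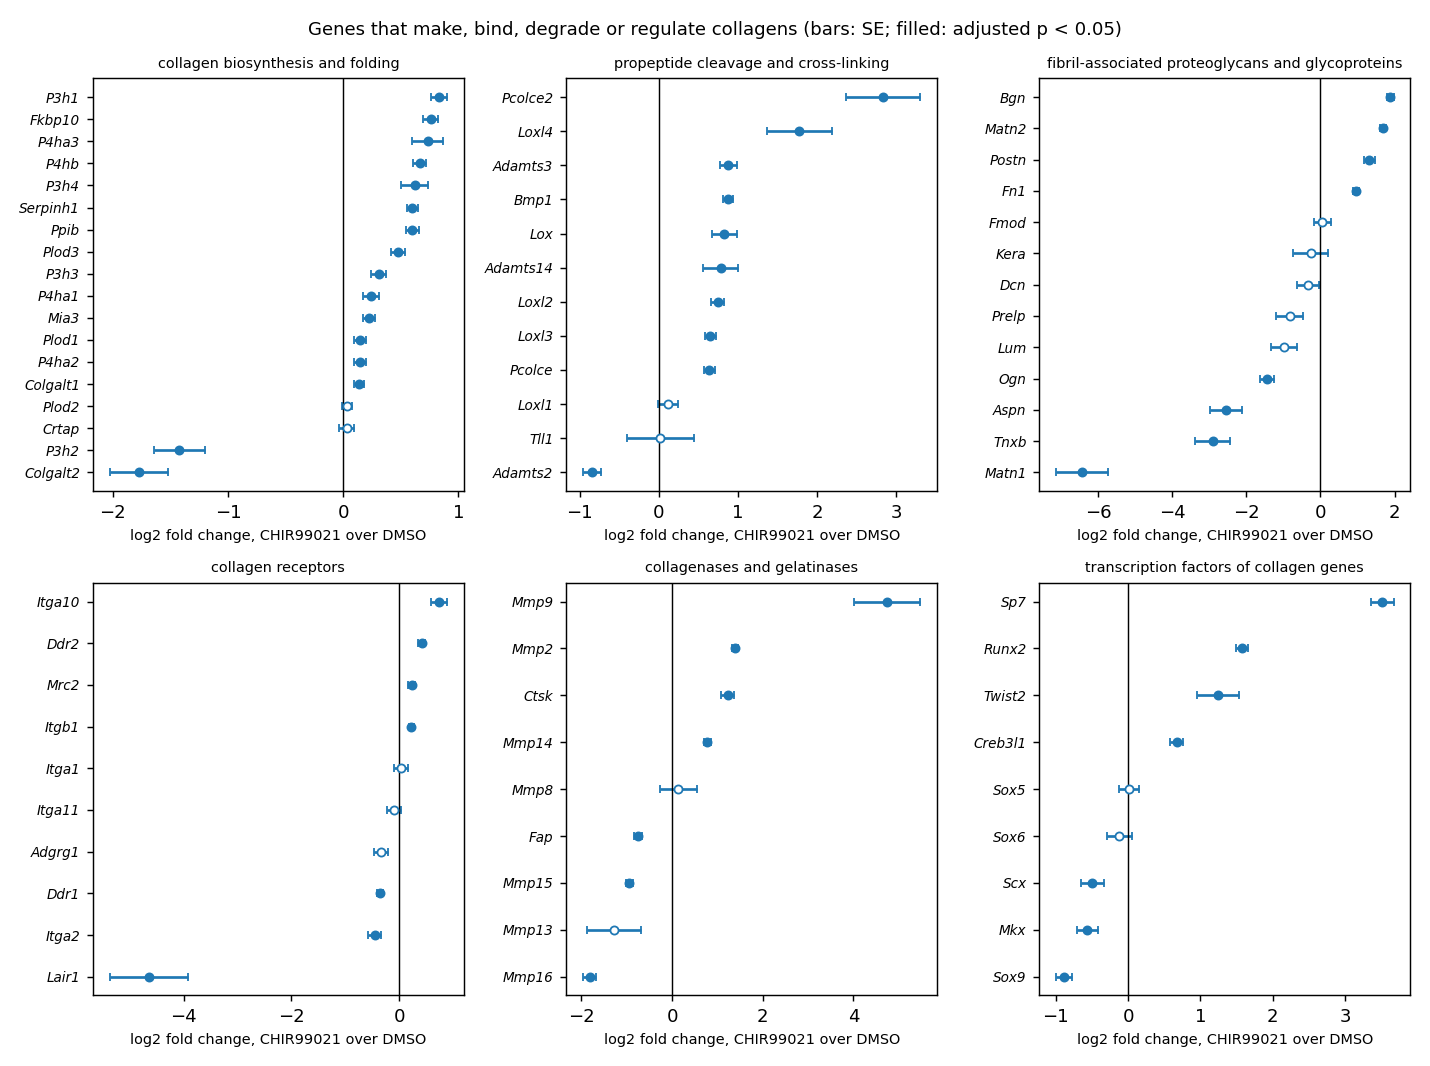
Log2 fold changes of CHIR99021 over DMSO for the tested genes of 6 lists that make, trim, bind, degrade or regulate collagens, with bars of 1 SE and filled points at an adjusted p under 0.05. In the panel of biosynthesis and folding 14 of 18 genes lie above 0 and pass, and *Colgalt2* is lowest at -1.77.

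Markers of cell types that make collagens did not move as a block. Over all tested genes 23.7% rose and 25.0% fell. Of 8 stromal genes 1 rose and 3 fell (median log2 fold change -0.31), with *Pdgfra* up from 222 ± 22.5 to 505 ± 18.1 CPM and *Foxd1*, *Tcf21* and *Meis1* down (log2 fold changes -0.53, -0.29 and -0.33), and their sum overlapped at 813 to 1005 and 964 to 1150.4 CPM. The cartilage list was close to the floor, at a sum of 7.95 to 10.5 CPM with DMSO and 2.66 to 3.82 CPM with CHIR99021 over 6 of 7 listed genes, and aggrecan *Acan* stood at 0.983 ± 0.636 and 0.868 ± 0.363 CPM. Of its 5 tested genes *Hapln1*, *Matn1* and *Cnmd* fell and *Acan* and *Chad* did not pass, and *Matn1* had 1 count in all after CHIR99021. The bone list summed to 51.5 to 57.5 CPM with DMSO and 112 to 127 CPM with CHIR99021, with *Runx2*, *Sp7*, *Ibsp* and *Alpl* higher and *Dmp1* and *Phex* lower, while osteocalcin *Bglap* was too low to test. Smooth muscle and pericyte genes overlapped in sum (243 to 337 and 289.9 to 385 CPM), with 2 higher and 2 lower of 5 tested, and so did the tendon and dermis list (22.4 to 33.6 and 21.6 to 27.8 CPM, 1 higher and 3 lower of 5 tested).

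Markers of several other cell types were lower after CHIR99021, and no gene of the marker lists was at 0 counts in a whole group. Over all tested genes 25.0% fell. All 6 nephron progenitor genes fell, with the sum going from 548 to 660.0 CPM with DMSO to 38.4 to 47.1 CPM. All 5 macrophage genes fell, with the sum going from 50.6 to 142 CPM with DMSO to 22.7 to 31.2 CPM, and 4 of 6 ureteric genes fell, with the sum going from 403 to 468 CPM with DMSO to 238 to 282 CPM. The podocyte list had 1 higher and 1 lower of 3 tested genes, and the Schwann and neural crest list 1 lower of 2 tested (48.1 to 65.5 and 40.9 to 52.3 CPM). The part of these shifts in the collagen changes was not tested.

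The type IV collagens, left out above, fell in 5 of 6 tested genes (not *Col4a6*, log2 fold change -0.13), against 25.0% of all tested genes. Their median log2 fold change was -0.71. Their summed FPKM was 298 to 353 with DMSO and 189.9 to 212 with CHIR99021, and *Col4a1* fell from 1351 ± 119.7 to 828 ± 47.9 CPM (log2 fold change -0.71 with an SE of 0.068, adjusted p = 3.11e-06). The difference in direction between the type IV chains and the fibrillar collagens was not tested as such.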

How the data were processed

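RNA was measured by bulk RNA sequencing in 8 cultured kidneys, 4 with CHIR99021 and 4 with DMSO, grouped by the sample labels. The authors mapped reads with HISAT2 2.0.5 to GRCm38 and deposited raw counts per gene made with featureCounts and, in a separate table, FPKM values per gene. The strand setting of the counting was not given in the sources read. The labels name Trizol and NEBNext Ultra kits and the paper's methods name others. Columns with the authors' mean level, fold ratio, log2 fold change, p-value and call were not used.

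Counts were tested with edgeR 4.0.16 in R 4.3.3 (TMM, filterByExpr at its limits of 10 for the count and 15 for the total, robust quasi-likelihood fit), with Benjamini-Hochberg adjustment over 16723 genes and a threshold of 0.05. The SE of a log2 fold change was its size over the square root of F, and approximate 95% intervals are 2-sided and use this SE. Intervals give the uncertainty of the group difference in the unpaired fit, based on the spread between these samples, and not the range of single samples. In simulated counts for 16723 genes the test recovered 82% of 100 genes changed by a log2 fold of 1 and 99% of 100 changed by 2, and 17 of its 198 calls were false. The simulation changed 200 genes and had no pairs, whereas 48.7% of tested genes were called in the real counts. Its shares may therefore not carry over to them. The kidneys of an embryo were split between the groups, per the methods, and same-numbered samples deviated together from their group means and were taken as pairs (correlations 0.111 to 0.346, against -0.180 to 0.0766 for other numbers). The methods describe paired kidneys but no pairing term in the fit, so the fit here has no block and the paired fit is an alternative. Other alternatives were DESeq2 1.42.0, limma 3.58.1 on counts and FPKM, other scalings and filters, and samples left out.

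The members and companion lists were chosen with earlier results of these data known. Every member is named. Sample values are given in CPM for nearly all of them, always for the 3 most abundant of each class and, among those called, for the 6 that rose most and the 6 that fell most. From each companion list up to 4 genes with the smallest p are named.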

Additional observations from a re-analysis of the deposited data

Results flagged for a closer look

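Of 70 groups of 4 samples examined, 1 for each tested collagen and treatment, 5 held a sample that lay far from the other 3 by Dixon's 95% criterion, and chance flags about 1 in 20 groups. *Col9a1* stood at 10.2 CPM in DMSO replicate 1, above 7.19 to 7.62 CPM in the other controls. *Col1a1* stood at 3891 CPM in CHIR99021 replicate 1, below 4655 to 4792 CPM in the other treated samples. *Col3a1* stood at 1979.9 CPM in DMSO replicate 3, above 1607 to 1657 CPM in the other controls. *Col28a1* stood at 2.00 CPM in DMSO replicate 2, above 0.703 to 0.851 CPM. *Col13a1* stood at 11.9 CPM in CHIR99021 replicate 2, above 9.11 to 9.55 CPM. None of the 4 called genes among these lost its call when that sample was left out, and *Col28a1* was not called with or without its sample.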

How the results depend on the processing

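The number of collagens that rose, 16, lay between 14 and 19 under the alternatives run, and the number that fell, 10, between 10 and 11. Among the FACITs 2 rather than 1 rose with DESeq2, limma-voom and the filter at 1 CPM in 4 samples, and between 1 and 3 with 1 sample left out. Among the transmembrane collagens 1 rather than 2 rose with limma on log2(FPKM + 1) and with both DMSO replicates 2 and 4 left out, and between 1 and 2 with 1 sample left out. In all, 22 of the 35 tested members kept their direction and their side of the threshold under every alternative run. Of 664 values of single members 618 did so, 11 lost and 18 gained a call with the same direction, and 17, all of genes without a call, changed sign.

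The sign changes were small. With limma on log2(count + 1) after quantile normalization the log2 fold change was 0.17 for *Col9a2*, 0.039 for *Col9a3*, -0.0035 for *Col27a1*, -0.12 for *Col6a1* and -0.18 for *Col6a2*. With limma on log2(FPKM + 1) and log2(FPKM + 0.1) it was -0.068 and -0.079 for *Col27a1* and -0.13 and -0.14 for *Col6a2*. *Col6a2* was also at -0.035 with upper-quartile scaling, -0.0025 with limma-voom and -0.078 with both DMSO replicates 2 and 4 left out. With 1 sample left out, *Col9a2* ranged from -0.24 to 0.064, *Col27a1* from -0.0092 to 0.14 and *Col6a2* from -0.12 to 0.11. The cause of these shifts was not tested.

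In the paired fit, with the replicate number as a block, 17 collagens rose and 10 fell. *Col6a1* gained its call there, *Col6a2* was at -0.0017, and the block changed no other call among the members. Depth limits *Col10a1*, *Col19a1* and *Col22a1*, which had too few counts to be tested in the main fit. With no expression filter all 38 members were tested, and 17 rose and 11 fell. There 5 of the 14 genes of other kinds fell, *Col10a1* among them.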
